A study of Drosophila melanogaster with 4 samples.

Results

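The 10 muscle sarcomere genes described here encode the myosin, actin, troponin, tropomyosin and titin-like proteins of striated muscle: Mhc, Mlc2, Act57B, Act88F, up, wupA, Tm1, Tm2, bt and sls. They were chosen by name from a count table of 17137 Drosophila melanogaster genes, and all 10 are listed there. Poly(A) RNA was sequenced from nuclei pulled down from the heads of flies aged 10 days by INTACT, a method that captures nuclei carrying a membrane-anchored tag. In the VAChT:VGlut genotype (2 libraries) a split-Gal4 pair drove UAS-UNC84, the nuclear tag, from the promoters of VAChT, whose product loads acetylcholine into vesicles, and VGlut, whose product loads glutamate. In the VAChT:VGAT genotype (2 libraries) the same tag was driven by VAChT with VGAT, the GABA loader. Split-Gal4 labels cells in which both promoters are active, and flies of both genotypes carry the VAChT part and the tag and had no treatment. Heads were pooled, and neither the sex of the flies nor whether replicate libraries were separate collections of flies is given, so the p-values measure the spread between these libraries, which may be technical.

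A sarcomere is the contractile unit of striated muscle. Thick filaments of myosin pull on thin filaments of actin, which troponin and tropomyosin open to myosin when calcium rises, and giant elastic proteins tie the thick filaments to the Z disc, the plate that anchors the thin filaments. Fly heads hold striated muscle, such as that of the proboscis and the antennae, whereas the large flight muscles lie in the thorax, and the labels call the purified nuclei neuronal.

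The libraries held 2023040 and 2556988 counts in VAChT:VGlut and 1937871 and 1490390 counts in VAChT:VGAT. Counts of the 10 sarcomere genes made up 0.167% and 0.166% of the VAChT:VGlut libraries and 0.128% and 0.128% of the VAChT:VGAT libraries. The exact 95% binomial intervals of these shares ran from 0.161% to 0.172% and from 0.161% to 0.171% in VAChT:VGlut, and from 0.123% to 0.133% and from 0.122% to 0.134% in VAChT:VGAT, and cover counting error only. The shares of the genotypes did not overlap. Without Tm1, which also makes non-muscle forms, the shares were 0.137% and 0.137% in VAChT:VGlut and 0.101% and 0.102% in VAChT:VGAT. In bulk RNA, fewer nuclei of a cell type and less RNA per nucleus cannot be told apart.

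Most sarcomere genes were higher in VAChT:VGlut. Of the 10 genes, 9 passed the filter on low counts and were tested, and 7 of these rose in VAChT:VGlut (edgeR quasi-likelihood test, Benjamini-Hochberg adjusted p under 0.05), with Act57B, bt and Mhc showing the largest changes. None fell, and wupA and Tm1 did not pass the test. Over all 8246 genes tested, 6.22% were called higher in VAChT:VGlut and 5.54% lower. All 9 tested sarcomere genes averaged over 50 CPM (counts scaled to a library total of 1000000), and among the 3582 genes at or above 50 CPM, a level chosen after the values were seen, 12.7% were called higher. The median log2 fold change of VAChT:VGlut over VAChT:VGAT was 0.41 over the 9 genes (range 0.17 to 0.61) and -0.01 over all genes tested. In all 9 tested genes both VAChT:VGlut libraries lay above both VAChT:VGAT libraries, a pattern seen in 23.6% of all genes tested. The count of 7 fell to 3 with DESeq2 (Mhc, Act57B and bt) and to 2 when edgeR was given a fixed biological coefficient of variation of 0.1 (Mhc and Act57B). It was 4 without VAChT:VGlut replicate 1, VAChT:VGlut replicate 2 or VAChT:VGAT replicate 1. With library size alone as the scaling, which moved the median of all genes to -0.04, 398 genes were called higher and 575 lower over all genes, against 513 and 457, and 6 of the 9 sarcomere genes were called, each higher.

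**Figure D1:**
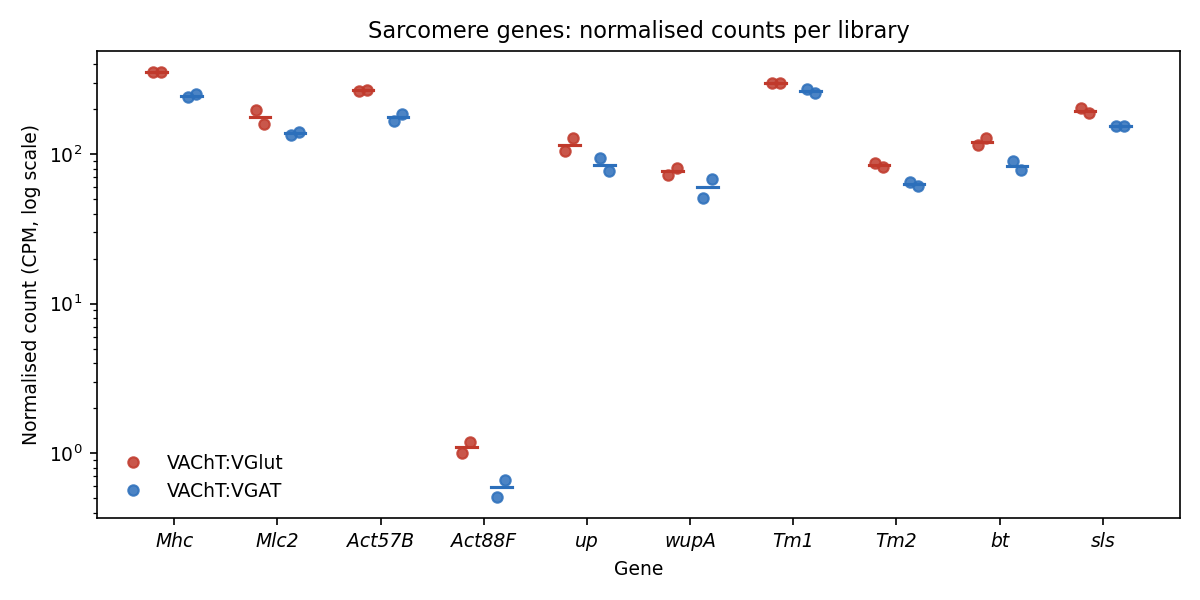
Normalised count (CPM, log scale) of each of the 10 sarcomere genes in each library; points are libraries, bars are the means of the 2 libraries, VAChT:VGlut left (red) and VAChT:VGAT right (blue). The VAChT:VGlut points lie above the VAChT:VGAT points for each gene, by little in Tm1, and Act88F lies near 1 CPM, where a library holds 1 to 3 counts.

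The thick filament was represented by Mhc and Mlc2, and both rose in VAChT:VGlut. Mhc (FBgn0264695; dm6 chromosome 2L, 16766566 to 16788766, plus strand) encodes the muscle myosin heavy chain, and its splice forms serve all body muscles of the fly. It had 354 and 353 CPM in the VAChT:VGlut libraries, against 241 and 250.4 CPM in the VAChT:VGAT libraries. The VAChT:VGlut libraries were high and nearly equal and the groups did not overlap. The means were 353 ± 0.68 CPM in VAChT:VGlut and 246 ± 6.60 CPM in VAChT:VGAT (SD, n = 2 each), which is 1.44-fold higher (log2 fold change 0.53, SE 0.07, edgeR adjusted p = 2.95e-09).

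Mlc2 (FBgn0002773; chromosome 3R, 30171438 to 30174551, minus strand) encodes the regulatory light chain of muscle myosin. It had 196 and 159.7 CPM in VAChT:VGlut, against 135 and 139.8 CPM in VAChT:VGAT. The VAChT:VGlut libraries differed from each other by more than those of VAChT:VGAT, and the groups did not overlap. The log2 fold change was 0.36 (SE 0.09, edgeR adjusted p = 0.00385). Without the higher VAChT:VGlut library, replicate 1, it was 0.23 (edgeR adjusted p = 0.248), and without VAChT:VGAT replicate 1 it was 0.33 (edgeR adjusted p = 0.066).

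The thin filament comprised 2 actins, 2 troponin subunits and 2 tropomyosins. Act57B, up and Tm2 rose in VAChT:VGlut, wupA and Tm1 were not past the threshold, and Act88F was too low to test. Act57B (FBgn0000044; chromosome 2R, 20944021 to 20946431, plus strand) encodes a muscle actin, the protein that builds the thin filament. It had 264 and 269.8 CPM in VAChT:VGlut, against 167 and 184 CPM in VAChT:VGAT. Both VAChT:VGlut libraries were high and there was no overlap. Act57B had the largest change of the tested sarcomere genes, 1.53-fold higher (log2 fold change 0.61, SE 0.08, edgeR adjusted p = 2.90e-09). A small nucleolar RNA gene shared exon bases with it, which left 94.4% of the exon bases to Act57B alone.

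Act88F (FBgn0000047; chromosome 3R, 15439969 to 15442177, plus strand) encodes the main actin of the indirect flight muscles of the thorax. It had 2 and 3 counts in VAChT:VGlut, against 1 and 1 counts in VAChT:VGAT, which is at or below the 3 counts taken as the floor (1.19 CPM in the deepest library). The gene was close to undetected in both genotypes and no fold change is given. Actin genes have closely similar coding sequences, and no counting option for reads that fit several places is recorded in the file, so reads in shared stretches are uncertain for each of them.

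The troponin subunits were at similar levels and varied more between libraries. The gene up (FBgn0004169; chromosome X, 13593474 to 13602578, minus strand) encodes troponin T, which ties the troponin complex to tropomyosin. It had 104 and 128 CPM in VAChT:VGlut, against 93.7 and 76.6 CPM in VAChT:VGAT. The groups did not overlap, although the lower VAChT:VGlut library and the higher VAChT:VGAT library were close. The log2 fold change was 0.44 (SE 0.12, edgeR adjusted p = 0.00523), and it was 0.28 without VAChT:VGlut replicate 2 (edgeR adjusted p = 0.347) and 0.32 without VAChT:VGAT replicate 2 (edgeR adjusted p = 0.125).

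The gene wupA (FBgn0283471; chromosome X, 18105568 to 18116922, minus strand) encodes troponin I, the inhibitory subunit. It had 72.9 and 81.0 CPM in VAChT:VGlut, against 51.2 and 68.6 CPM in VAChT:VGAT. The VAChT:VGAT libraries stood apart from each other, and the upper one came close to the VAChT:VGlut libraries. The difference of 0.39 on the log2 scale (SE 0.14, edgeR adjusted p = 0.0551, 95% interval 0.11 to 0.67) was just short of the threshold. The call turned on the setting: wupA was past it under 6 of 13 alternatives, among them the length-trend fit below, limma-voom and the fit without VAChT:VGAT replicate 2 (log2 fold change 0.60, edgeR adjusted p = 0.0101). Without VAChT:VGAT replicate 1 the log2 fold change was 0.17 (edgeR adjusted p = 0.695).

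The tropomyosins, rod proteins that lie along the actin filament, are encoded by neighbouring genes on the plus strand of chromosome 3R, with 1413 bases between the end of Tm1 and the start of Tm2. Tm1 (FBgn0003721; 15281371 to 15308779) makes non-muscle as well as muscle forms, which counts per gene do not separate. It had 299 and 299 CPM in VAChT:VGlut, against 274 and 257 CPM in VAChT:VGAT. The groups did not overlap, but Tm1 had the smallest difference of the tested sarcomere genes (log2 fold change 0.17, SE 0.07, 95% interval 0.03 to 0.30, edgeR adjusted p = 0.107).

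Tm2 (FBgn0004117; 15310193 to 15315197) encodes a tropomyosin used mainly in muscle. It had 86.9 and 82.2 CPM in VAChT:VGlut, against 65.5 and 61.3 CPM in VAChT:VGAT. Both VAChT:VGlut libraries were higher by about the same amount. The log2 fold change was 0.41 (SE 0.13, edgeR adjusted p = 0.0282). Tm2 was the least firm of the 7 calls: it was lost in each fit that left out 1 library (edgeR adjusted p = 0.0961 to 0.153) and with library size alone as the scaling (edgeR adjusted p = 0.0514).

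The connecting filaments were represented by bt and sls, the longest genes of the set. Both rose in VAChT:VGlut. The gene bt (FBgn0005666; chromosome 4, 724400 to 776474, plus strand) encodes projectin, a giant kinase protein that in flight muscle links thick filaments to the Z disc and in other muscles lies along the thick filament. It had 114 and 128 CPM in VAChT:VGlut, against 89.6 and 77.9 CPM in VAChT:VGAT. The groups were clearly apart, and the log2 fold change was 0.53 (SE 0.11, edgeR adjusted p = 0.000346). Without VAChT:VGlut replicate 2 it was 0.44 (edgeR adjusted p = 0.0623).

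The gene sls (FBgn0086906; chromosome 3L, 2039681 to 2115611, minus strand) encodes Sallimus and its shorter form kettin, titin-like proteins anchored at the Z disc. It had 204 and 187 CPM in VAChT:VGlut, against 155.1 and 154 CPM in VAChT:VGAT. The VAChT:VGAT libraries were nearly equal and both were below the VAChT:VGlut libraries. The log2 fold change was 0.33 (SE 0.08, edgeR adjusted p = 0.00413). Without VAChT:VGlut replicate 1 it was 0.27 (edgeR adjusted p = 0.0997), and without VAChT:VGAT replicate 1 it was 0.33 with an adjusted p just over the threshold (edgeR, 0.0503).

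**Figure D2:**
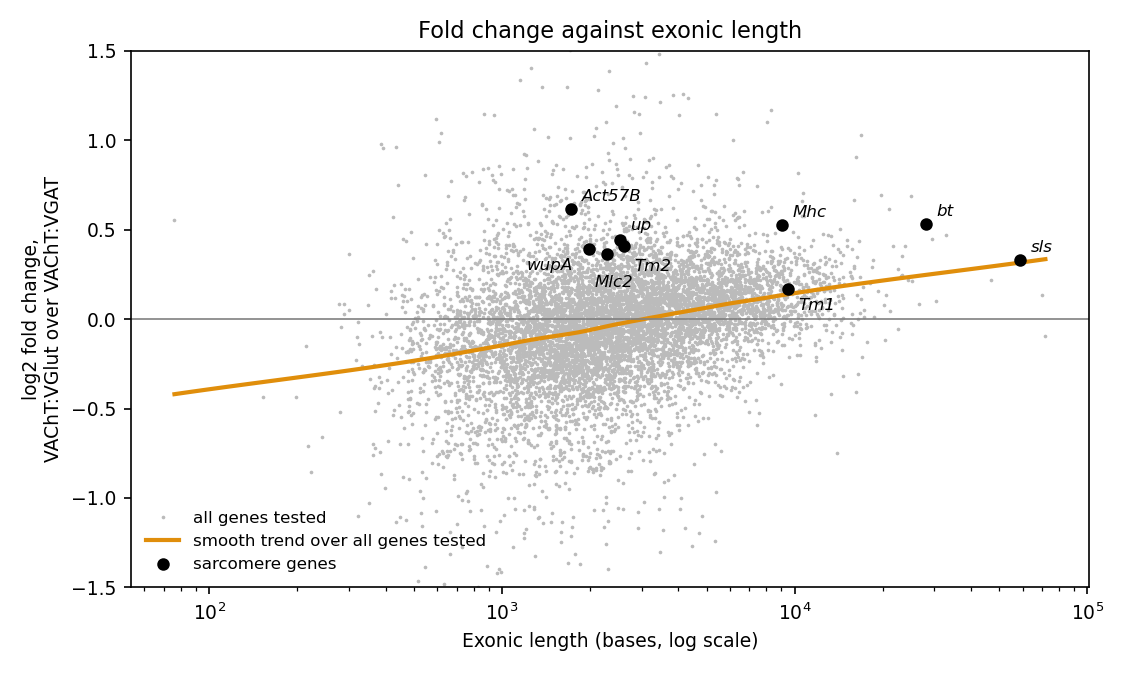
Log2 fold change of VAChT:VGlut over VAChT:VGAT against exonic length (bases, log scale) for all 8246 genes tested (grey), with the smooth trend over all of them (orange) and the 9 tested sarcomere genes (black); 32 genes lie beyond the plotted range of 1.5 in either direction. Tm1 and sls lie on or close to the trend, and the other 7 lie above it.

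Exonic length moved with the fold change over all genes (Spearman rho 0.33 over 8246 genes, which share the same 4 libraries). Among 4 classes by length with nearly equal numbers of genes, the shortest had a median log2 fold change of -0.14 and the longest one of 0.10. At the exonic length of sls (58996 bases) the trend lay at 0.32 and at that of bt (28019 bases) it lay at 0.25. After the trend was removed, the log2 fold change of sls was 0.01 (edgeR adjusted p = 0.965), that of bt was 0.28 (edgeR adjusted p = 0.126) and that of Tm1 was 0.03 (edgeR adjusted p = 0.889). The shorter genes moved the other way, since the trend was below 0 at their lengths. Act57B (1724 bases) had a log2 fold change of 0.69 and wupA (1978 bases) one of 0.46 after removal, and wupA was then past the threshold (edgeR adjusted p = 0.0301). Mhc (9058 bases) had 0.39 (edgeR adjusted p = 8.45e-06). With the trend removed, 6 of the 9 tested genes passed, each with a higher level in VAChT:VGlut: Mhc, Mlc2, Act57B, up, wupA and Tm2. The source of the length trend was not tested.

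Levels of different genes were compared per kilobase of exon (RPKM, the CPM value divided by exonic length). Act57B was the most abundant, with 155 ± 2.44 RPKM in VAChT:VGlut and 102 ± 7.23 RPKM in VAChT:VGAT (SD, n = 2 each). Mlc2 came next, with 77.8 ± 11.2 RPKM in VAChT:VGlut and 60.0 ± 1.62 RPKM in VAChT:VGAT. A group of 5 genes, up, Mhc, wupA, Tm2 and Tm1, followed between 31.6 and 45.8 RPKM in VAChT:VGlut and between 24.3 and 33.7 RPKM in VAChT:VGAT. Within it, Mhc overlapped wupA and Tm2 overlapped Tm1 in VAChT:VGlut, and in VAChT:VGAT the libraries of up, wupA, Tm1 and Mhc overlapped from each gene to the next. The giants were far lower, bt with 4.33 ± 0.36 RPKM in VAChT:VGlut and 2.99 ± 0.29 RPKM in VAChT:VGAT, and sls with 3.31 ± 0.20 RPKM in VAChT:VGlut and 2.62 ± 0.01 RPKM in VAChT:VGAT. The exonic lengths join the exons of all splice forms, which lowers this value for genes with many alternative exons. Act88F was last, at 0.69 ± 0.08 RPKM in VAChT:VGlut and 0.37 ± 0.07 RPKM in VAChT:VGAT.

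**Figure D3:**
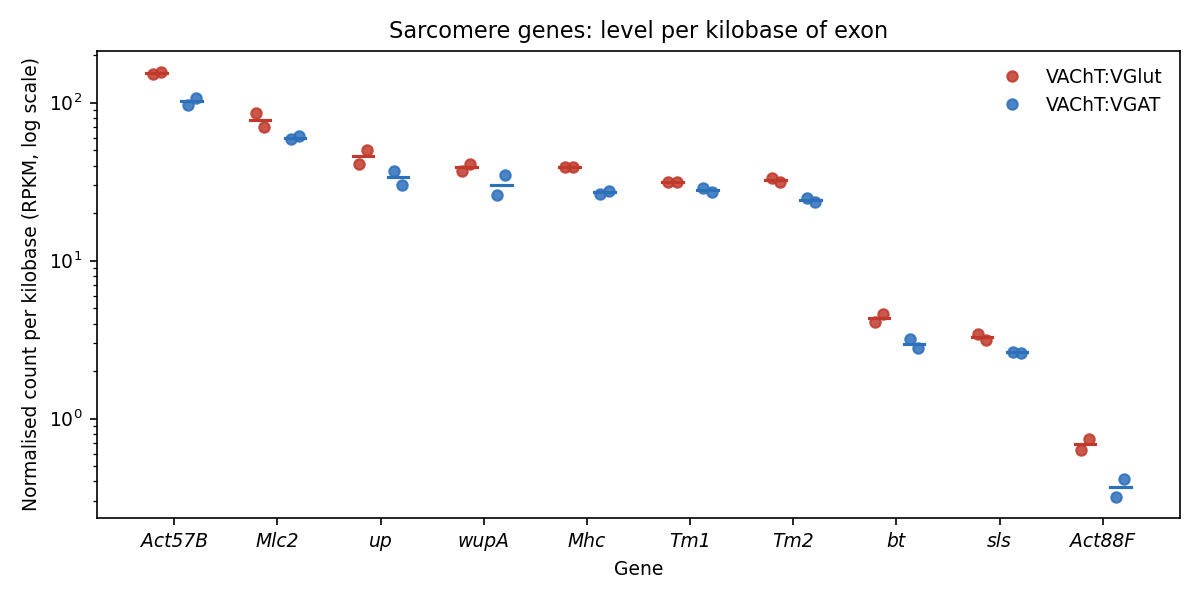
Level per kilobase of exon (RPKM, log scale) of the 10 sarcomere genes, ordered by their mean over all 4 libraries; points are libraries, bars are means, VAChT:VGlut left (red) and VAChT:VGAT right (blue). Act57B leads at 102 to 155 RPKM on average, 5 genes lie together between 24.3 and 45.8, and bt, sls and Act88F are below 5.

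Set against all 8246 genes tested, whose median was 17.2 RPKM over the 4 libraries, Act57B stood at percentile 94.1 and Mlc2 at percentile 87.8. Mhc stood at percentile 72.9. Of the 5 neuronal markers, elav stood at 70.8, and brp, para, Syt1 and nSyb stood above Mhc, at 88.6, 95.7, 97.3 and 98.5. By contrast, bt stood at percentile 7.08 and sls at 4.46 by this measure, which divides by exonic length. Without that division, bt averaged 102 CPM and sls 175 CPM over the 4 libraries. Act57B, Mlc2 and Mhc averaged 221, 158 and 299 CPM.

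Ratios of counts within a library do not depend on the scaling between libraries. Mhc, Act57B, Mlc2 and Mlc1 each had a higher ratio to a non-muscle relative in VAChT:VGlut, narrowly so for Mlc1. The ratio of Mhc to zip, the non-muscle myosin heavy chain, was 0.821 and 0.825 in VAChT:VGlut, against 0.550 and 0.605 in VAChT:VGAT. For Act57B over Act5C, a cytoplasmic actin, it was 0.262 and 0.264 in VAChT:VGlut, against 0.172 and 0.193 in VAChT:VGAT. The ratio of Mlc2 to sqh, the non-muscle regulatory light chain, was 2.39 and 2.18 in VAChT:VGlut, against 1.62 and 1.47 in VAChT:VGAT. For Mlc1 over Mlc-c, the muscle and non-muscle essential light chains, the ratio was 0.887 and 0.795 in VAChT:VGlut, against 0.594 and 0.788 in VAChT:VGAT. None of these ratios overlapped between the genotypes, but those of Mlc1 to Mlc-c nearly met. The share of separated ratios over other pairs of genes was not computed. With 2 libraries against 2, an exact two-sided permutation test cannot go below p = 0.333, so these ratios are given without a test.

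Within the muscle set, 5 of 11 ratios overlapped between the genotypes and 6 did not. Several of these ratios share a gene, and no share over other pairs of genes was computed, so the counts are descriptive only. Mhc to Mlc1, the essential light chain, was 3.45 and 3.47 in VAChT:VGlut, against 3.46 and 3.16 in VAChT:VGAT. The ratio of up to wupA was 1.43 and 1.57 in VAChT:VGlut, inside the wide span of 1.83 and 1.12 in VAChT:VGAT. That of bt to sls was 0.560 and 0.687 in VAChT:VGlut, against 0.578 and 0.504 in VAChT:VGAT. The other ratios that overlapped were Act57B to Act79B and Mhc to Prm. Among the separated ratios, Tm1 to Tm2 was 3.45 and 3.63 in VAChT:VGlut, against 4.19 and 4.20 in VAChT:VGAT, and Act57B to Tm1 was 0.881 and 0.903 in VAChT:VGlut, against 0.608 and 0.718 in VAChT:VGAT. Separation was narrow for Mhc to Mlc2, at 1.81 and 2.21 in VAChT:VGlut against 1.79 and 1.79 in VAChT:VGAT. It was also seen for Act57B to Act87E, at 9.72 and 9.43 in VAChT:VGlut against 6.04 and 8.94 in VAChT:VGAT. It was seen too for Mhc to Act57B, at 1.34 and 1.31 in VAChT:VGlut against 1.44 and 1.36 in VAChT:VGAT, and for Mhc to sls, at 1.74 and 1.89 in VAChT:VGlut against 1.55 and 1.62 in VAChT:VGAT. Some of these pairs were picked after their values were seen.

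The other genes of muscle were taken from a list of 30, of which 21 were tested. Of these, 11 rose in VAChT:VGlut, 1 fell and 9 were not past the threshold (background 6.22% higher and 5.54% lower). Among all genes at or above 50 CPM, 12.7% were called higher. The list was chosen with earlier results of these data known. The median log2 fold change of the 21 genes was 0.29, against -0.01 over all genes tested. The 12 calls fell to 4 with DESeq2, which gave 14 of the 21 genes an adjusted p, and to 1 (Zasp52) at the fixed variation of 0.1. They were 7 without VAChT:VGlut replicate 1 and 6 without VAChT:VGlut replicate 2 or VAChT:VGAT replicate 1. The structural thick filament genes moved most evenly: 4 of 4 tested rose. Prm, which encodes paramyosin of the thick filament core, had 53.8 and 64.4 CPM in VAChT:VGlut, against 39.9 and 38.6 CPM in VAChT:VGAT (log2 fold change 0.60, edgeR adjusted p = 0.00604). Mlc1, Unc-89 (listed today as Obsc, the obscurin of the M line) and Mf, which encodes myofilin, had log2 fold changes of 0.47, 0.47 and 0.35 (edgeR adjusted p = 0.00422, 0.0109 and 0.000627). Without VAChT:VGlut replicate 2 the calls of Prm and Mlc1 were lost. That of Mlc1 was also lost without VAChT:VGAT replicate 1, and that of Unc-89 without VAChT:VGlut replicate 1, without VAChT:VGAT replicate 2 and with the length trend removed.

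Among 9 other thin filament genes, 5 were tested and 2 rose (background 6.22% higher). Act79B, a muscle actin, had 51.8 and 48.5 CPM in VAChT:VGlut, against 30.7 and 38.0 CPM in VAChT:VGAT (log2 fold change 0.56, edgeR adjusted p = 0.0208). The thin filament elongation factor gene sals had 27.6 and 28.2 CPM in VAChT:VGlut, against 17.9 and 16.6 CPM in VAChT:VGAT (log2 fold change 0.69, edgeR adjusted p = 0.0386). The call of sals was lost in each fit without a library and with the length trend removed, and that of Act79B was lost in each fit without a library except the one without VAChT:VGAT replicate 2. The pointed-end cap gene tmod (log2 fold change 0.21), the troponin C gene TpnC25D (0.21) and the actin gene Act87E (0.19) did not pass (edgeR adjusted p = 0.0692, 0.404 and 0.681). TpnC41C and TpnC73F had 5 to 11 counts per library and TpnC47D had 0 in each. The flight muscle genes fln and TpnC4 had few counts: fln had 0 and 2 counts in VAChT:VGlut, against 0 and 0 in VAChT:VGAT, and TpnC4 had 0 and 0 in VAChT:VGlut, against 6 and 1 in VAChT:VGAT.

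The Z disc gave 2 calls in 5 tested genes, both higher in VAChT:VGlut (background 6.22% higher). Zasp52, a scaffold of the Z disc, had 207 and 208 CPM in VAChT:VGlut, against 139.7 and 138 CPM in VAChT:VGAT (log2 fold change 0.58, edgeR adjusted p = 2.26e-07), and its call held under all 13 alternatives. Mlp84B, a muscle LIM protein gene, had a log2 fold change of 0.47 (edgeR adjusted p = 0.0267), and its call was lost in each fit without a library. Zasp66 had 0.33 (edgeR adjusted p = 0.0557), Actn, which encodes the actin cross-linker alpha-actinin, had 0.16 (edgeR adjusted p = 0.355) and Mlp60A had 0.01 (edgeR adjusted p = 0.987). For Mlp60A the sign turned under library size alone, with a log2 fold change of -0.03.

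Genes listed under calcium handling, energy supply and regulation, some of which neurons also use, did not move as one. SERCA, the calcium pump of the sarcoplasmic reticulum, had 587 and 598 CPM in VAChT:VGlut, against 505 and 541 CPM in VAChT:VGAT (log2 fold change 0.19, edgeR adjusted p = 0.00687). RyR, its calcium release channel, fell, with 417 and 400.1 CPM in VAChT:VGlut, against 518 and 486 CPM in VAChT:VGAT (log2 fold change -0.30, edgeR adjusted p = 2.46e-05). Strn-Mlck, a myosin light chain kinase family gene, rose by 0.47 and the myogenic transcription factor gene Mef2 by 0.29 on the log2 scale (edgeR adjusted p = 0.000883 and 0.0126). The calls of SERCA, Strn-Mlck and Mef2 were lost with the length trend removed. Mef2 was also lost in each fit without a library, and SERCA without VAChT:VGlut replicate 2 or VAChT:VGAT replicate 1. The arginine kinase gene Argk (log2 fold change 0.06) and bru1 (-0.25), an RNA-binding splicing regulator of flight muscle, did not pass (edgeR adjusted p = 0.293 and 0.152). The value of bru1 turned on 1 library: it was -0.47 without VAChT:VGlut replicate 2 (edgeR adjusted p = 0.0353) and -0.09 without VAChT:VGlut replicate 1, and with the length trend removed it was -0.36 (edgeR adjusted p = 0.0263). The glutamate receptor subunits of the neuromuscular junction were low, with GluRIIA at 12.7 to 15.6 CPM, GluRIIB at 0 counts in each library and GluRIIC, GluRIID and GluRIIE at 0 to 4 counts.

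The non-muscle relatives of the myosin and actin genes did not pass the test. Of 5 tested, 0 had an adjusted p under 0.05 in edgeR, limma-voom or DESeq2 (which gave Act42A none), and 0 had an unadjusted edgeR p under 0.05. Act5C had 1008 and 1021 CPM in VAChT:VGlut, against 971 and 955 CPM in VAChT:VGAT (log2 fold change 0.08, 95% interval -0.00482 to 0.16). For zip the values were 431 and 427 CPM in VAChT:VGlut, against 438 and 414 CPM in VAChT:VGAT (log2 fold change 0.01, 95% interval -0.11 to 0.12; the sign turned under library size alone). Its interval lies below that of Mhc, which ran from 0.39 to 0.66, and the interval of Act5C lies below that of Act57B, which ran from 0.46 to 0.77. For sqh (log2 fold change -0.20), Mlc-c (0.16), the non-muscle essential light chain, and the cytoplasmic actin gene Act42A (-0.08), the intervals were -0.45 to 0.05, -0.05 to 0.37 and -0.51 to 0.34. Differences between genes in fold change were not tested.

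**Figure D4:**
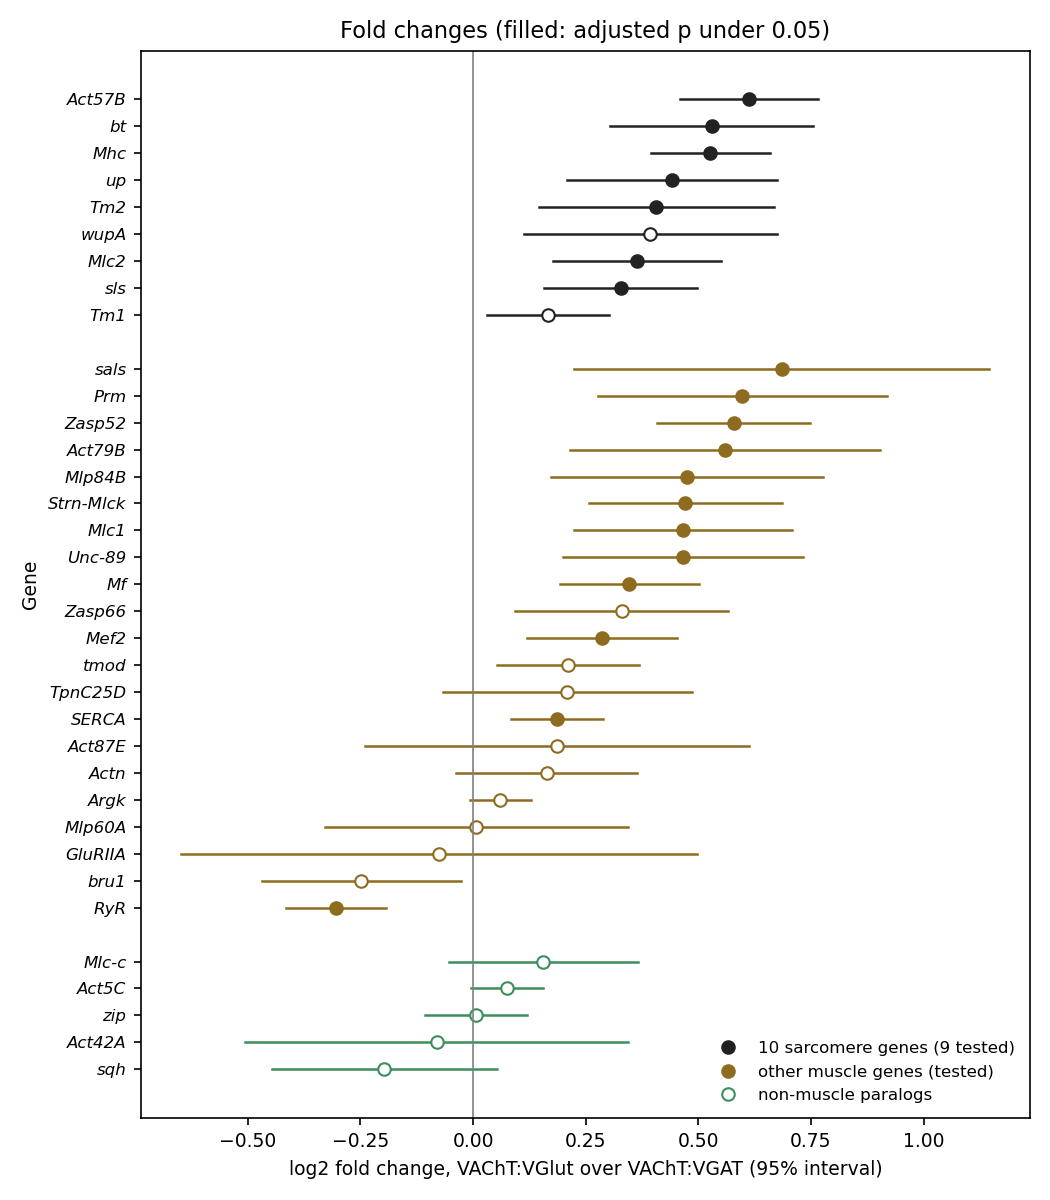
Log2 fold change of VAChT:VGlut over VAChT:VGAT with a 95% interval derived from the edgeR test statistic. Shown are the 9 tested sarcomere genes (black), 21 tested genes of the list of other muscle genes (brown) and 5 non-muscle paralogs (green). Filled points had an adjusted p under 0.05. The sarcomere genes lie between 0.17 and 0.61, the paralogs between -0.20 and 0.16, and RyR is the filled point below 0.

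Markers of other cell types differed between the genotypes too, in both directions. Over all genes tested, 6.22% were called higher and 5.54% lower, and 12.7% were called higher among genes at or above 50 CPM. The share called lower among genes at or above 50 CPM was not computed. Many of these markers had high counts, where small changes were called. Of 5 neuronal markers, 5 rose in VAChT:VGlut (summed level 8521 and 8711 CPM, against 7228 and 7309 CPM in VAChT:VGAT), with log2 fold changes of 0.12 to 0.35. Of 8 photoreceptor markers, 7 rose and 1 did not pass (31070 and 31336 CPM in VAChT:VGlut, against 25270.3 and 25504 CPM in VAChT:VGAT). The log2 fold changes of the 8 were 0.09 to 0.43. In contrast, 5 of 5 fat body markers fell (27857 and 27249.8 CPM in VAChT:VGlut, against 33719 and 33785 CPM in VAChT:VGAT). Of 5 glial markers 3 fell and 2 did not pass (1269.8 and 1170.5 CPM in VAChT:VGlut, against 1648 and 1670.0 CPM in VAChT:VGAT). Of 3 hemocyte markers, 2 were tested and fell (73.4 and 80.7 CPM in VAChT:VGlut, against 125 and 107 CPM in VAChT:VGAT), and no marker of these lists was at 0 in every library. The summed level of the 10 sarcomere genes was 1695 and 1688 CPM in VAChT:VGlut, against 1272 and 1271 CPM in VAChT:VGAT. The part of these shifts in the sarcomere result was not tested.

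**Figure D5:**
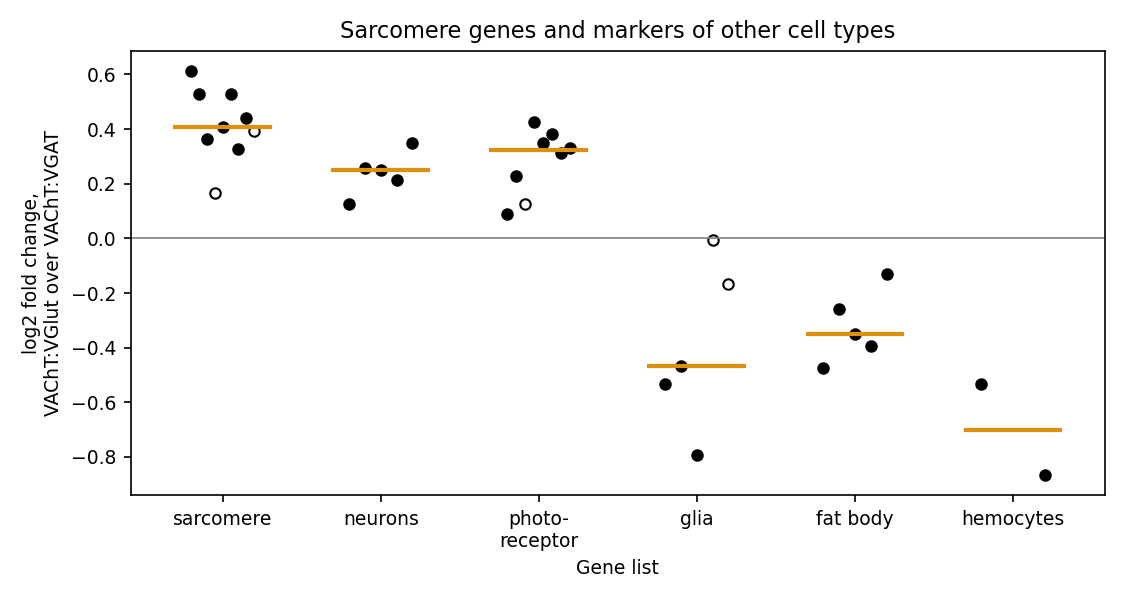
Log2 fold change of VAChT:VGlut over VAChT:VGAT of each tested gene of the sarcomere set and of the marker lists of 5 other cell types; filled points had an edgeR adjusted p under 0.05 and orange bars are medians. Sarcomere, neuronal and photoreceptor genes lie above 0, with medians of 0.41, 0.25 and 0.32, and glial, fat body and hemocyte genes lie below it.

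The genes whose profile over the 4 libraries was closest to the mean profile of the tested sarcomere genes were lncRNA:Hsromega, ksr and Unr. Closeness was the Euclidean distance between centred log2(CPM + 1) values, which was 0.024, 0.026 and 0.028 among 5645 candidate genes. Of these, Hsromega is a long non-coding RNA gene induced by heat shock, ksr encodes a scaffold of Ras signalling and Unr an RNA-binding protein. Unr had 767 and 756 CPM in VAChT:VGlut, against 577 and 573 CPM in VAChT:VGAT. With 4 libraries, closeness of this kind rests mainly on the size of the difference between the genotypes.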

How the data were processed

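The authors deposited raw counts per gene for 4 libraries, which per the file headers came from featureCounts 1.5.1 in paired, reverse-stranded mode, run on the exons of the dm6 refGene annotation. fastp, STAR, featureCounts, DESeq2 and dm6 are named in the submitters' processing notes, without versions beyond that one, and duplicate removal is not given in the sources used here. The exonic length per gene in bases is also from the deposited table, as are coordinates. FlyBase identifiers came from a name table, and all 45 sarcomere, muscle and paralog genes overlapped their Ensembl BDGP6 span on the same strand.

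Counts were tested with edgeR 4.0.16 (R 4.3.3; quasi-likelihood F test, genotype as the term, all 4 libraries). Low genes were removed with filterByExpr at a minimum count of 10 and a minimum total of 15, TMM factors were 0.99 to 1.01, and p-values were adjusted over 8246 genes with the Benjamini-Hochberg method (threshold 0.05). CPM is the count per 1000000 of the TMM-scaled total of kept genes, and RPKM divides it by exonic kilobases. Intervals are 95%. The fits were run on simulated data drawn with the variation fitted to these same libraries. That check cannot show how the calls would fare if replicates varied more. Floors of 3 counts cover counting error only. Alternatives used limma-voom (limma 3.58.1), DESeq2 1.42.0, other scalings and filters, a fixed biological coefficient of variation of 0.1, removal of the length trend, a replicate block and leaving out each library.

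Libraries of a genotype differed by more than counting noise (chi-square over degrees of freedom 1.22 in VAChT:VGlut and 1.19 in VAChT:VGAT). They were kept apart. The common biological coefficient of variation fitted over 8246 genes was 2.18%, which is below the fixed value used as an alternative. The p-values of the main fit rest on this spread between libraries, which may be technical. The genes named were the 10 sarcomere genes and, from the lists of other muscle genes and non-muscle paralogs, those past the threshold or with a mean of at least 20 CPM; genes of these lists below that are named only for their low counts. Members, lists and tests were chosen with earlier results of these data known. 0 columns of per-sample values were left unused. No sequences are shown.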

Additional observations from a re-analysis of the deposited data

How the results depend on the processing

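All 9 tested sarcomere genes kept a positive log2 fold change under each of 13 alternatives, 117 values in all; 88 kept their side of the threshold, 23 fell short of it and 6, all of wupA, passed it. Mhc and Act57B kept their calls under each. DESeq2, which gave 3130 of the 8246 genes an adjusted p, called 3 sarcomere genes, 4 other muscle genes and 370 genes in all. A biological coefficient of variation fixed at 0.1, which is above the fitted common value of 2.18%, called 2, 1 and 186. Removing the length trend called 628 genes in all (321 higher and 307 lower). Fits without 1 library called 4 to 6 sarcomere genes, 6 to 8 other muscle genes and 513 to 738 genes in all, 513 without VAChT:VGlut replicate 2 and 612 without VAChT:VGAT replicate 1, against 970 with all libraries. In the fits without 1 library, the lone library of a genotype is assumed to vary like the other genotype's, and fewer libraries were fitted. The cause of the changed counts was not tested for any setting. The replicate number as a block called 7 sarcomere genes, 13 other muscle genes, 0 paralogs and 1049 genes in all, with Zasp66 then past the threshold (edgeR adjusted p = 0.0489). Same-numbered libraries did not deviate together (correlation -0.03 across genes), and the labels do not say that they belong together.

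Directions turned for genes that were not called. Mlp60A was at -0.0277 with library size alone, at -0.0111 when genes needed a mean of 50 counts, and at -0.0472 to 0.0782 without 1 library. The log2 fold change of zip was -0.0290 with library size alone, -0.0123 when genes needed a mean of 50 counts and -0.102 with the length trend removed, and -0.0291 to 0.0507 without 1 library. Act42A was at 0.00662 with the length trend removed and at -0.265 to 0.0837 without 1 library. Depth limits Act88F, fln and the neuromuscular receptor subunits other than GluRIIA, which had at most 4 counts in a library.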
